A study of Mus musculus with 12 samples.

Results

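The gene *Trp53*, 2 inhibitors of its protein and 7 of its transcriptional targets were followed through GSK3β inhibition in mouse B-ALL cells. These 10 genes (*Trp53*, *Mdm2*, *Mdm4*, *Ccng1*, *Trp53inp1*, *Zmat3*, *Phlda3*, *Eda2r*, *Aen* and *Sesn1*) were taken as a named list, and all 10 were found among the 41444 genes of the RNA-seq table. The cells were pre-B cells from bone marrow of *Ctnnb1* fl/fl mice, grown with IL-7, transformed with *BCR*-*ABL1* and then kept without IL-7. Both groups carried the ERT2 vector without Cre, so that both floxed copies of the β-catenin gene stayed in place, and both received 1 µM 4-OHT (a tamoxifen metabolite) for 2 days. Control cells received nothing else (3 samples), and LY2090314 cells also received 40 nM of this GSK3β inhibitor for 1 day (3 samples). The study's text gives a shorter time than the labels do. The samples are called control 1 to 3 and LY 1 to 3 in the order of the table. LY 1 and LY 2 share a number in the table's column names and may come from 1 culture. The study describes the replicates as separate mice. The cells of each sample were transformed in culture by 1 oncogene, and the ages of the mice are not given. Samples with Cre, in which β-catenin is deleted, are not analysed here.

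The p53 protein is a transcription factor that is made continuously and degraded at once in unstressed cells. Mdm2, a ubiquitin ligase, marks p53 for the proteasome, and its relative Mdm4 covers the transactivation domain of p53. DNA damage, oncogene activity and disturbed ribosome assembly free p53 from both inhibitors, after which p53 switches on genes of arrest, repair and apoptosis, and *Mdm2* itself, which closes a feedback loop. Since p53 is controlled mainly at the protein level, the *Trp53* transcript is not a measure of p53 activity. In pre-B cells transformed by *BCR*-*ABL1* the p53 pathway is a known barrier to leukemia.

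Values are on the regularized log2 (rlog) scale, which corrects for library size and pulls a gene with few reads in towards its own mean. A difference of 1 is a doubling for well-expressed genes and is understated for low ones. Groups were compared with limma on the 11536 genes with a mean of at least 3, and a gene was called when its p, adjusted over all of them by the Benjamini-Hochberg method, was under 0.05. All 10 genes passed the limit. The table holds no counts, so the depth of the libraries is unknown. Control pairs differed by an SD across genes of 0.185 to 0.239, LY pairs by 0.186 to 0.253, and samples of different groups by 0.581 to 0.622. The LY pair at 0.186 was LY 1 and LY 2, which share a number, and both pairs with LY 3 were at 0.253. Of the pre-B markers, 9 of 9 were detected (log2 of their summed level 16.18 to 16.21 in control and 15.55 to 15.7 in LY samples). With LY2090314, 8 of the 9 were called lower, beside 25.3% of all tested genes. The other, *Cd79a*, was at 14.04 in control and 14.28 in LY samples and was not called. The 4 T cell, 3 stromal and 3 erythroid markers were below 1 in each sample, among them *Col1a2*, *Pdgfra* and *Hba-a1* at 0. Of 6 myeloid markers, *Mpo* and *Elane* were at 0, whereas *Lyz2* rose from 5.80 to 6.34 and set the summed myeloid level of 5.84 to 6.05 in control and 6.40 to 6.51 in LY samples. In bulk RNA, fewer cells of a type and less RNA per cell cannot be told apart, and the part that these shifts have in the results was not tested. The β-catenin transcript *Ctnnb1* was at 12.19 in control and 11.85 in LY cells, *Gsk3b* differed by 0.13 (adjusted p = 0.051, limma), and *Myc* fell by 2.64.

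Of the 10 genes, 7 were called, 5 higher and 2 lower with LY2090314. Across all tested genes 50.1% were called, 24.8% higher and 25.3% lower, so that a call by itself sets a gene little apart in this comparison. *Trp53inp1*, *Zmat3*, *Mdm4*, *Mdm2* and *Eda2r* were higher, *Trp53* and *Sesn1* were lower, and *Ccng1*, *Phlda3* and *Aen* were not called. The median difference of the 10 genes was 0.185 and their median size of difference was 0.33, against 0.012 and 0.24 over all tested genes. In 8 of the 10 genes the groups did not overlap, against 58.6% of all tested genes. The LY samples were the higher ones in 6 of the 10 (29.1% of all genes) and the lower ones in 2 (29.5%). A called difference of at least 1, a doubling, was present in 1 of the 10 genes and in 6.01% of all tested genes. The targets did not move as a block: of the 7 targets, 3 were higher, 1 was lower and 3 were not called.

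**Figure D1:**
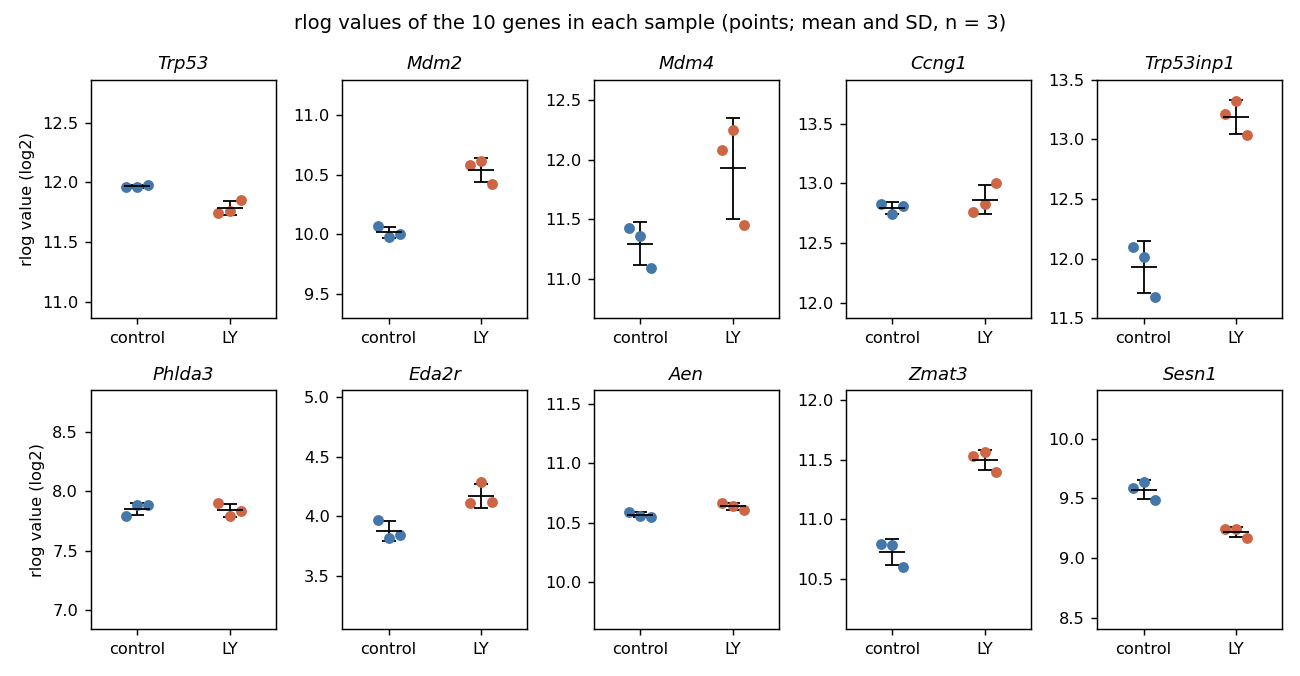
Each panel shows the rlog value (log2) of 1 gene in the 3 control and the 3 LY2090314 (LY) samples as points, with the mean and SD as black bars, and each vertical axis spans the same 2 log2 units. *Trp53inp1*, *Zmat3* and *Mdm2* lie higher in every LY sample by a clear margin, *Mdm4* is spread widely, and *Phlda3* and *Ccng1* overlap between the groups.

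The promoters of the targets are among the places where p53 could act. They were therefore searched for the p53 half-site, the consensus decamer of which p53 response elements hold a pair. RefSeq windows (GRCm38.p6, 250 bases before to 50 bases after the start) were found for 8 of the 10 genes, in 11 windows. *Trp53inp1* and *Zmat3* have no window in the table. A half-site without mismatch, on either strand, was present in a window of 5 of the 8 genes (*Trp53*, *Mdm2*, *Ccng1*, *Aen* and *Sesn1*), against 9.55% of 27025 genes with a window. The E-box CACGTG, to which Myc binds, was found in 3 of the 8 (*Trp53*, *Eda2r* and *Aen*), against 8.09% of genes, and the TCF/LEF letters ATCAAAG in none of the 8, against 4.29% of genes. No match overlapped another. The windows of *Mdm2* (chr10:117710709-117711008, minus strand), *Sesn1* (its second start, chr10:41887189-41887488, plus strand), *Ccng1* (chr11:40755237-40755536, minus strand) and *Trp53* (chr11:69580109-69580408, plus strand) are given here because these genes hold a half-site and still differ in direction. Capitals mark the half-site, and in *Trp53* also the E-box near the end.
Mdm2: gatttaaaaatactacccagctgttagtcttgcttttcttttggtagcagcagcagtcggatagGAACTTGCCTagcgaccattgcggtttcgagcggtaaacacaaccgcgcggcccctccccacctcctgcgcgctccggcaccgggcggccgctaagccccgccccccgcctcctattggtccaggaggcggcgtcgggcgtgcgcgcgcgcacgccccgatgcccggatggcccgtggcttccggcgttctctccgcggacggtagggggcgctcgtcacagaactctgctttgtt
Sesn1: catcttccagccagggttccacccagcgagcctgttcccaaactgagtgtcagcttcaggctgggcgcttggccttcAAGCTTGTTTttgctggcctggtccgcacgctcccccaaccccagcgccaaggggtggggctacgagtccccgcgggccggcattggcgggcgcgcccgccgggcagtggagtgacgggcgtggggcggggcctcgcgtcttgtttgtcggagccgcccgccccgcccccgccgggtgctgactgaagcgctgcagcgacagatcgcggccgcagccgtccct
Ccng1: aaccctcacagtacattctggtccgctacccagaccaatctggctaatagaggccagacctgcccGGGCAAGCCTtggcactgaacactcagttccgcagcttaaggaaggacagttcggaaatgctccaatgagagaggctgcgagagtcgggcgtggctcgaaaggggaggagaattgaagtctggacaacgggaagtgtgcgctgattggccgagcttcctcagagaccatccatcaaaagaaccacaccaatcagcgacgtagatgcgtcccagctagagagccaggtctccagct
Trp53: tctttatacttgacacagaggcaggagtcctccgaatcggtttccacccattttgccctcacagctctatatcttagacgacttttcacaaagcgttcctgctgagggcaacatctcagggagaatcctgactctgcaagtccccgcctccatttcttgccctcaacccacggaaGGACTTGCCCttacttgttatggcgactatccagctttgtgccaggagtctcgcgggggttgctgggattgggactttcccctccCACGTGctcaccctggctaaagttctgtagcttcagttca
Positions are counted from the start, with bases before it negative. The half-site of *Mdm2* is gaacttgcct, beginning at −186, and that of *Ccng1* is gggcaagcct, at −185. *Sesn1* has aagcttgttt at −173 and *Trp53* has ggacttgccc at −75. *Aen* has gggcttgtcc at −121 from the later of its 2 annotated starts. Among these 5 genes *Mdm2* was higher, *Trp53* and *Sesn1* were lower and *Ccng1* and *Aen* were not called, so a half-site in the window did not go with 1 direction. The windows of *Mdm4*, *Phlda3* and *Eda2r* hold no half-site by this search. The search covers neither introns nor distal elements, and the well-known p53 elements of *Mdm2* lie in its first intron. A match of letters is a description and not a binding site.

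*Trp53* (ENSMUSG00000059552, chromosome 11, 69580359 to 69591873, plus strand) encodes p53 itself. Its rlog values were 11.96, 11.96 and 11.98 in the control samples and 11.74, 11.76 and 11.85 in the LY samples. All 3 LY samples were below all 3 controls, by a margin of 0.11, and the controls were nearly identical (SD 0.0138). In log2 units the transcript fell by 0.19 (standard error 0.0471, adjusted p = 0.012, limma), a 1.14-fold lower level. Of all tested genes, 59.5% differed by at least as much. The call depended on LY 2, without which the difference was −0.175 and the adjusted p 0.051 (limma). The pseudogene *Trp53-ps* stayed between −1.96 and −1.95 in all samples, and the exons of *Trp53*, like those of the other 9 genes, share no base with another gene in the GENCODE vM21 annotation of GRCm38.

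*Mdm2* (ENSMUSG00000020184, chromosome 10, 117688875 to 117710758, minus strand), the ubiquitin ligase that directs p53 to degradation, was at 10.07, 9.98 and 10.00 in control and at 10.58, 10.61 and 10.42 in LY samples. Every LY sample lay above every control by at least 0.35. *Mdm2* rose by 0.52 (standard error 0.0625, adjusted p = 3e-04, limma), a 1.43-fold higher level, and stayed called in each of 12 alternatives, with differences of 0.49 to 0.58.

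*Mdm4* (ENSMUSG00000054387, chromosome 1, 132959484 to 133030561, minus strand), which inhibits p53 and pairs with Mdm2 but is a weak ligase alone, was at 11.43, 11.36 and 11.09 in control and at 12.08, 12.25 and 11.45 in LY samples. LY 1 and LY 2 were well above the controls, whereas LY 3 exceeded the highest control by only 0.03. The mean difference of 0.64 (standard error 0.193, adjusted p = 0.026, limma) was 1.56-fold on the linear scale, with an SD of 0.419 among LY samples, the widest spread of the 10 genes. Without LY 3 it was 0.87 (adjusted p = 0.00048, limma). The call was lost without LY 1 (0.56, adjusted p = 0.085), LY 2 (0.48, 0.076), control 2 (0.67, 0.055) or control 3 (0.535, 0.086). It was also lost with LY 1 and LY 2 averaged to 1 sample (0.52, adjusted p = 0.080, limma), and with no lower limit on the mean (adjusted p = 0.098, limma). The pseudogene *Mdm4-ps* did not exceed 0.17 in any sample.

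Both inhibitors were thus measured in the same libraries, and their balance was taken within each sample as *Mdm2* minus *Mdm4*, which does not depend on library scaling. This log2 difference was −1.36, −1.38 and −1.09 in control and −1.50, −1.64 and −1.03 in LY samples. The ranges overlapped, LY 3 having the highest and LY 2 the lowest value. The mean shifted by −0.12 (exact two-sided permutation test, p = 0.60, n = 3 per group, where the smallest possible p is 0.10). The overlap rested on LY 3. Without it the shift was −0.297, with both other LY samples below all controls (exact two-sided permutation test, p = 0.10, the smallest possible p for 3 against 2 samples also being 0.10). It was 0.009 without LY 2, −0.064 without LY 1 and −0.024 without control 3, so that single samples decided its size and sign.

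*Trp53inp1* (ENSMUSG00000028211, chromosome 4, 11156431 to 11174379, plus strand) encodes a stress-induced nuclear protein that takes part in p53-dependent apoptosis and in autophagy. It showed the largest difference of the 10 genes. Its values were 12.10, 12.01 and 11.68 in control and 13.21, 13.32 and 13.04 in LY samples, a gap between the groups of 0.93. It rose by 1.26 (standard error 0.116, adjusted p = 7.7e-05, limma), or 2.39-fold, and 2.89% of tested genes rose at least as much. In 12 of 12 alternatives it stayed called, at 1.13 to 1.34.

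*Zmat3* (ENSMUSG00000027663, chromosome 3, 32334792 to 32366014, minus strand) encodes a zinc finger protein that binds RNA and acts on transcript stability and splicing. It was at 10.79, 10.78 and 10.60 in control and at 11.53, 11.56 and 11.40 in LY samples. The groups were separated by 0.61, and the spread within each was small. *Zmat3* rose by 0.78 (standard error 0.0695, adjusted p = 6.3e-05, limma), a 1.71-fold higher level, and stayed called in 12 of 12 alternatives.

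*Eda2r* (ENSMUSG00000034457, chromosome X, 97333840 to 97377216, minus strand), a death-domain-free receptor of the TNF receptor family, was at the bottom of the range, with 3.97, 3.82 and 3.84 in control and 4.11, 4.29 and 4.12 in LY samples. The LY samples were all higher, by a margin of 0.14, in a part of the scale where rlog values are strongly shrunk. The difference of 0.30 (standard error 0.0885, adjusted p = 0.025, limma) lost its call with quantile normalization (0.18, adjusted p = 0.13). The call was also lost without control 2 (0.27, adjusted p = 0.082), control 3 (0.275, 0.070) or LY 2 (0.24, 0.085), and, at an adjusted p of 0.051 (limma), with no lower limit on the mean.

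*Sesn1* (ENSMUSG00000038332, chromosome 10, 41809935 to 41908424, plus strand) encodes a sestrin, which restrains mTORC1 and limits oxidative damage. It moved against the other called targets. Its values were 9.59, 9.64 and 9.49 in control and 9.24, 9.24 and 9.17 in LY samples, with no overlap. *Sesn1* fell by 0.36 (standard error 0.0605, adjusted p = 0.0018, limma), a 1.28-fold lower level, and stayed called in 12 of 12 alternatives.

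Among the 3 targets without a call, *Aen* (ENSMUSG00000030609, chromosome 7, 78895854 to 78911209), a nuclease that takes part in apoptotic DNA degradation, was at 10.59, 10.56 and 10.55 in control and at 10.67, 10.64 and 10.61 in LY samples. Its groups were separated by 0.02 only, and the 95% interval of the difference ran from −0.03 to 0.18 (adjusted p = 0.20, limma). *Ccng1* (ENSMUSG00000020326, chromosome 11, 40748552 to 40755311) encodes cyclin G1, which binds protein phosphatase 2A and Mdm2. It was at 12.83, 12.74 and 12.81 in control and at 12.76, 12.83 and 13.00 in LY samples, so the ranges overlapped, and the interval ran from −0.10 to 0.23 (adjusted p = 0.47, limma). *Phlda3* (ENSMUSG00000041801, chromosome 1, 135766119 to 135769136), which keeps Akt from the membrane, was at 7.79, 7.88 and 7.88 in control and at 7.90, 7.79 and 7.83 in LY samples. Its interval ran from −0.18 to 0.16 (adjusted p = 0.92, limma). These intervals leave out a change in either direction as large as that of *Mdm2* or *Zmat3*, on the rlog scale.

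**Figure D2:**
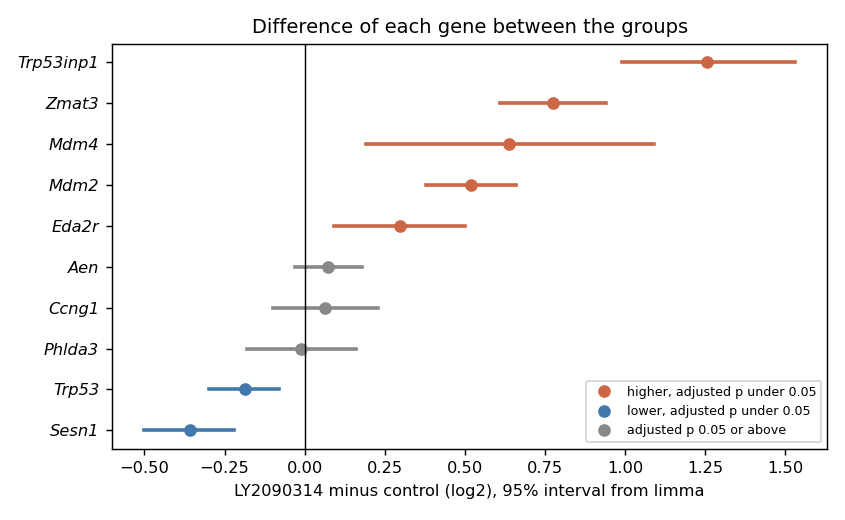
The horizontal axis gives the log2 difference LY2090314 minus control of each of the 10 genes (point) with its 95% interval from limma (line), and colours mark genes higher, lower or not called at an adjusted p of 0.05. The differences run from −0.36 for *Sesn1* to 1.26 for *Trp53inp1*, and the intervals of *Aen*, *Ccng1* and *Phlda3* cross 0.

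Levels of different genes were compared after taking off log2 of the exon length in kb, with the length of all annotated exons of a gene joined. On this per-length scale the control level was highest for *Ccng1* (10.99), followed by *Trp53* (9.95), *Trp53inp1* (9.24) and *Aen* (8.02). *Mdm2* (7.67), *Sesn1* (7.58), *Mdm4* (7.40), *Phlda3* (7.21) and *Zmat3* (7.20) lay close together, and *Eda2r* was far below (1.32). *Mdm2* and *Sesn1*, and *Phlda3* and *Zmat3*, differed by no more than the spread between samples. With LY2090314 the per-length level of *Trp53inp1* was 10.50, above that of *Trp53* at 9.76, an order opposite to that in control cells. *Mdm2* at 8.19, *Aen* at 8.10, *Mdm4* at 8.04 and *Zmat3* at 7.98 were then close to each other, with *Sesn1* at 7.23 and *Phlda3* at 7.20 below them. Joined exons overstate the length of genes with many isoforms, such as *Mdm4*, so this order is approximate.

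Other p53 targets, a list of 28 genes of which 25 were tested, had 15 called genes, 11 higher and 4 lower, beside 24.8% higher and 25.3% lower among all tested genes. The median difference of the list was 0.10, against 0.012 over all tested genes. In the arrest group, 4 of 6 were called, a count to be read beside the 50.1% of all genes, as are those of the groups that follow. *Cdkn1a*, the Cdk inhibitor p21 and the best known p53 target, rose from 10.29 to 11.09 (difference 0.81, adjusted p = 4e-05, limma), with every LY sample at least 0.62 above every control. *Btg2*, an antiproliferative cofactor of mRNA deadenylation, had the largest difference of all the lists. It was at 7.83, 7.77 and 7.80 in control and at 10.19, 10.23 and 10.31 in LY samples, and rose by 2.44 (adjusted p = 7.7e-08, limma). *Gadd45a*, a stress sensor that restrains Cdk1, was also higher (0.75, adjusted p = 0.0012, limma), while *Plk2* and *Plk3* were not called. *Gtse1*, a microtubule-binding protein that restrains p53, fell by 0.435 (adjusted p = 0.0022, limma).

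In the apoptosis group 2 of 8 tested genes were called, beside 50.1% of all tested genes. *Pmaip1*, which encodes the BH3-only protein Noxa, rose by 1.28 (adjusted p = 5.9e-05, limma), from 7.54, 7.39 and 7.28 to 8.71, 8.84 and 8.48. The other was *Fas*, the death receptor, at a low level (3.21 in control and 3.55 in LY cells, adjusted p = 0.0069, limma). *Bbc3*, which encodes the BH3-only protein Puma, was at 7.91 in control and 7.97 in LY cells (adjusted p = 0.60, limma), and the effector *Bax* at 10.15 and 10.03 (adjusted p = 0.15, limma). Neither was called.

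The repair and nucleotide supply group had 4 of 5 genes called. *Rrm2b*, the p53-inducible subunit of ribonucleotide reductase, rose by 1.03 (adjusted p = 0.00039, limma), whereas *Rps27l*, a ribosomal protein paralogue, fell by 0.42 (adjusted p = 3e-04, limma). The repair genes *Ercc5* (0.47) and *Polk* (0.30) were higher as well. Of the 3 tested genes of metabolism and stress, *Ddit4*, an inhibitor of mTORC1, rose by 1.18 (adjusted p = 2.9e-06, limma), and *Tigar*, which lowers glycolytic flux, rose by 0.345 (adjusted p = 0.0066, limma). *Sesn2*, the relative of *Sesn1*, was at 7.97 in control and 7.85 in LY cells and was not called. Among genes that act back on p53, the phosphatase *Ppm1d* fell by 0.34 (adjusted p = 0.0016, limma) and the ubiquitin ligase *Rchy1* by 0.36 (adjusted p = 0.00063, limma), so that these 2 moved opposite to *Mdm2*, and the ubiquitin ligase subunit *Fbxw7* rose by 0.37. An exon of *Rchy1* overlaps *Thap6* on the other strand, which fell by 0.46. *Gdf15* was listed at 0 in all samples.

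**Figure D3:**
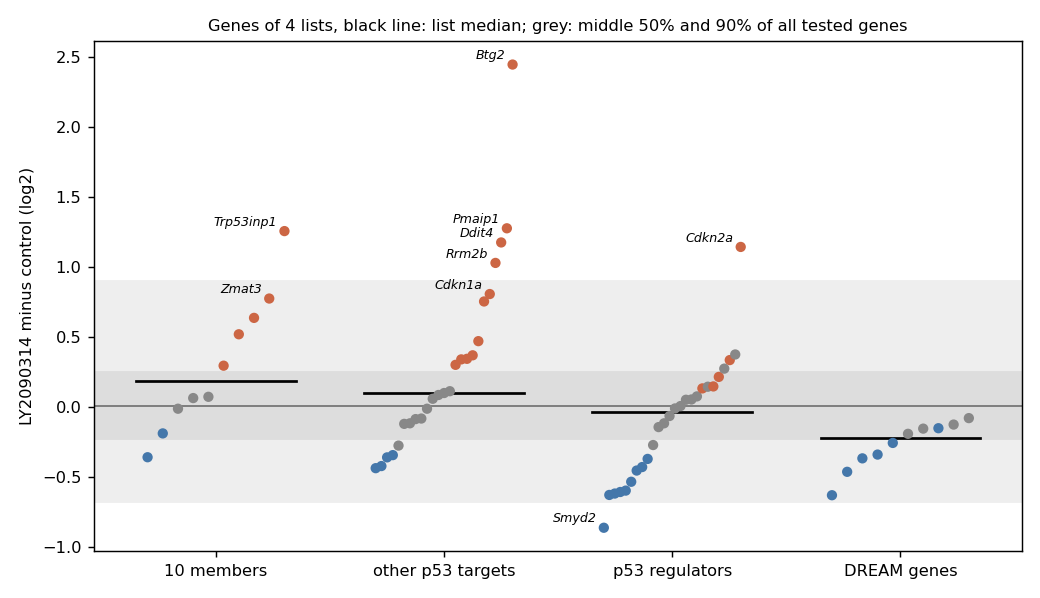
Each point is the log2 difference LY2090314 minus control of a gene, arranged by size within the 10 genes and 3 further lists, coloured as higher (orange), lower (blue) or not called (grey), with the list median as a black line. Grey bands hold the middle 50% and 90% of all tested genes. *Btg2* (2.44), *Pmaip1* (1.28), *Trp53inp1* (1.26), *Ddit4* (1.18), *Cdkn2a* (1.14) and *Rrm2b* (1.03) lie above both bands, and *Smyd2* (−0.86) lies below both. The 10 DREAM genes are all below 0 but within the 90% band, and 5927 of the 11536 tested genes are above 0.

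Of 28 regulators of p53, 26 were tested and 14 were called, 5 higher and 9 lower. Among all tested genes 50.1% were called, 24.8% higher and 25.3% lower, so the share called in this list was close to that of all genes. The median difference of the regulators was −0.04, against 0.012 over all tested genes. *Cdkn2a*, whose locus encodes p19Arf, an inhibitor of Mdm2, and p16Ink4a, an inhibitor of Cdk4 and Cdk6, had the largest rise. It was at 8.14, 8.12 and 8.05 in control and at 9.27, 9.27 and 9.20 in LY samples. The groups were 1.06 apart, and the gene rose by 1.14 (adjusted p = 4.1e-06, limma), or 2.21-fold. The gene-level value does not separate the 2 products. *Usp7*, a protease that removes ubiquitin from Mdm2 and p53, rose by 0.34 (adjusted p = 0.00093, limma), while *Npm1*, a nucleolar partner of Arf, fell by 0.605 (adjusted p = 0.0011, limma). The ribosomal proteins *Rpl5*, *Rpl11* and *Rpl23*, which can bind Mdm2, were not called. For *Rpl23* the 95% interval ran from −0.01 to 0.56, which does not leave out a rise as large as that of *Mdm2*. *Rpl5* shares 24.3% of its exon bases with *Fam69a* on the other strand, which fell by 0.85.

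Of the 6 DNA damage kinases 4 were called lower, beside 50.1% called and 25.3% lower among all tested genes. All 6 differences were below 0, but 2 were not called, and that of *Atm* was only −0.009. *Atr*, the kinase that responds to stalled replication, fell by 0.62 (adjusted p = 0.00017, limma). Its own target *Chek1* was at 10.16 in control and 9.71 in LY cells (adjusted p = 0.00031, limma), and *Hipk2* and *Prkdc* were the other called kinases (−0.53 and −0.43). *Atm*, the kinase that responds to double-strand breaks, was at 10.94 in control and 10.93 in LY cells and was not called. Of the enzymes that acetylate or methylate p53, *Smyd2*, a lysine methyltransferase that represses p53, showed the largest fall, by 0.86 (adjusted p = 5.6e-05, limma). The methyltransferase *Kmt5a* was lower by a difference of −0.595, and the demethylase *Kdm1a* was close to the threshold (0.13, adjusted p = 0.047, limma). *Smyd2* shares 30% of its exon bases with the antisense gene *Gm37422*, which was too low to be tested. The acetyltransferase *Ep300* was higher by 0.22 (adjusted p = 0.017, limma) and the deacetylase *Hdac1* by 0.15 (adjusted p = 0.020, limma). *Ep300* lost its call without control 3 (0.17, adjusted p = 0.051), LY 1 (0.18, 0.066) or LY 2 (0.22, 0.052), and with LY 1 and LY 2 averaged to 1 sample (0.20, adjusted p = 0.056, limma). *Hdac1* lost its call without control 1 (0.14, adjusted p = 0.069), control 2 (0.16, 0.059) or LY 2 (0.14, 0.081), and under median centring (0.12, adjusted p = 0.053, limma) or with LY 1 and LY 2 averaged (0.147, adjusted p = 0.058, limma). *Ppp1r13b*, which encodes the p53-binding protein ASPP1, fell by 0.63 (adjusted p = 0.0012, limma), and *Trp53bp1*, a repair factor, by 0.37 (adjusted p = 0.014, limma). The family members *Trp63*, listed at 0, and *Trp73*, at −1.24 in both groups, were not tested.

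The DREAM complex is a repressor of cell cycle genes through which p53 and p21 act indirectly. Of 10 genes under its control, 6 were called, all lower, beside 50.1% called and 25.3% lower among all tested genes. Their median difference was −0.22, against 0.012 over all tested genes. *Mcm5*, a subunit of the replicative helicase, fell by 0.63 (adjusted p = 0.00015, limma). Among mitotic genes *Birc5*, which encodes survivin, fell by 0.46 (adjusted p = 0.00012, limma) and *Cdc20*, an activator of the anaphase-promoting complex, by 0.34 (adjusted p = 0.00074, limma). *Cdc20* shares 2.8% of its exon bases with *Elovl1* on the other strand, which fell by 0.62. *Plk1* (−0.255) and *Ccnb2* (−0.15) were also called lower. *Cdk1* differed by −0.08 (adjusted p = 0.21, limma) and was not called.

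**Figure D4:**
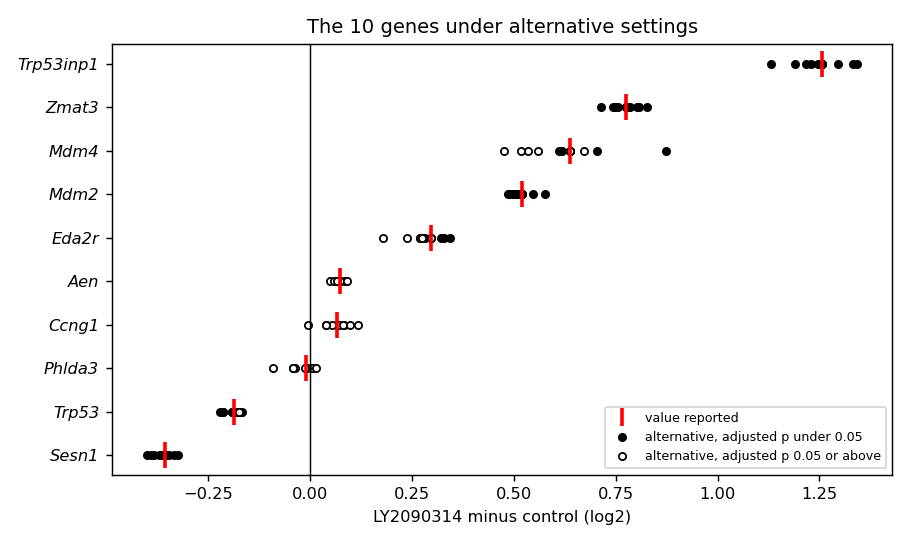
The log2 difference of each of the 10 genes is shown as reported (red bar) and under alternative scalings, filters, variance models and sets of samples (points, filled where the adjusted p was under 0.05). *Trp53inp1*, *Zmat3*, *Mdm2* and *Sesn1* have filled points only, whereas *Mdm4*, which runs from 0.48 to 0.87, and *Eda2r*, from 0.18 to 0.34, have open points as well.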

How the data were processed

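RNA-seq was made by the authors from polyadenylated RNA with a stranded kit and paired-end reads. The authors' tools were Salmon for transcript levels, STAR for alignment to GRCm38 (GENCODE vM24) and DESeq2 for the counts. The authors deposited 1 table of log2 values, named as rlog, for 41444 genes in 12 columns. Which samples entered the transformation is not given in the sources used here. Columns were matched to groups by name: 3 to ERT2 and 3 to ERT2 with LY2090314. The other 6 columns, whose names combine Cre and LY, were not used.

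Symbols were matched for 41157 identifiers. Genes with a mean of at least 3 over the 6 samples were kept, which left 11536, and limma 3.58.1 under R 4.3.3 was used for the comparison (mean-variance trend, Benjamini-Hochberg adjustment, threshold 0.05). The fit was tested on simulated data. Single values were compared with an exact permutation test over samples, whose smallest p is 0.10. The p-values measure the spread between these samples, which may be partly technical.

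The members, the lists and the alternatives were chosen with earlier results of these data known. Named besides the 10 members are, of each further list, up to 4 genes with the largest rise and up to 4 with the largest fall among called genes whose groups do not overlap, and *Cdkn1a*, *Cdkn2a*, *Bax*, *Bbc3*, *Gsk3b*, *Ctnnb1* and *Myc*. *Fas*, *Gadd45a*, *Plk2*, *Plk3*, *Ercc5*, *Polk*, *Tigar*, *Sesn2*, *Fbxw7*, *Hipk2*, *Prkdc*, *Kmt5a*, *Kdm1a*, *Trp53bp1*, *Plk1*, *Ccnb2*, *Chek1*, *Atm*, *Cdk1*, *Rpl5*, *Rpl11*, *Rpl23*, *Gdf15*, *Trp63*, *Trp73*, the markers and the overlapping genes and pseudogenes were named after their values were seen. The values of 1 gene that this rule names are not reported here.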

Additional observations from a re-analysis of the deposited data

How the results depend on the processing

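Of the 10 genes, 7 were called, and 4 of these (*Mdm2*, *Trp53inp1*, *Zmat3* and *Sesn1*) stayed called in 12 of 12 alternatives. The number called ranged from 4 to 7 with each sample left out in turn (4 without LY 2). Over all 11536 tested genes it ranged from 4734 (without control 2) to 6228 (without LY 3), against 5778 with all 6 samples. Without LY 2 it was 4821 of them. With LY 1 and LY 2 averaged to 1 sample it was 6 of the 10 genes and 4936 of all tested genes. At an adjusted p under 0.01, which is stricter for all tested genes alike, it was 4 of the 10 genes. With a size limit of 1 (log2) added, 1 of the 10 genes and 693 of all genes were called, since fewer reach that size. Also called were 4 of the other p53 targets, 1 of the regulators and 0 of the DREAM genes. Of the 10 DREAM genes, 8 had an unadjusted p under 0.05 in limma, beside 6514 of all 11536 tested genes. Values near 0 changed sign: *Ccng1* ranged from −0.004 to 0.117, *Phlda3* from −0.041 to 0.015 (0.004 without control 2 and 0.005 without control 3) and *Mdm2* minus *Mdm4* from −0.297 (without LY 3) to 0.009 (without LY 2) with each sample left out, and *Bbc3* was −0.021 with quantile normalization. None of these was past the threshold in either case. Of 36 named genes, 27 kept direction and call in each alternative run. *Gsk3b*, not called as reported, was called with the lower limit on the mean at 5, where *Eda2r* was not tested, and without LY 3 (adjusted p = 0.044, limma). Quantile normalization moved the median of all tested genes to −0.037, and 43.4% of calls were then higher, against 49.5%.

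No paired analysis was possible because replicate numbers in the titles of the samples do not recur in the table. Depth is not known from this table, and what it limits was not assessed. Low genes such as *Eda2r* are understated by the shrinkage of rlog values.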
